A study of Mus musculus with 12 samples.

Results

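Chemokine genes were counted in the brains of mice after experimental stroke. They were chosen by name, as the genes whose symbol begins with Ccl, Cxcl, Ccr or Cxcr and a digit, and the 5 described here, of the 757 endogenous genes of the panel, are all ligands. They comprise 4 CC ligands (Ccl2, Ccl12, Ccl3 and Ccl6) and 1 CXC ligand (Cxcl15). The samples were whole brain total RNA from 12 male C57BL/6 mice, 1 mouse a sample, and the assay was the nCounter Glial Profiling Panel, in which barcoded probes hybridised to chosen transcripts are counted. The groups of 4 were CD73ko mice after transient middle cerebral artery occlusion (tMCAO), CD73-floxed mice after tMCAO, and CD73-floxed mice after sham surgery. The artery was occluded for 50 min and brains were taken 3 days later. The mice's age, and how and in which cells CD73 was deleted, are not given in the sources used here. CD73, the product of Nt5e, converts extracellular AMP to adenosine. The panel holds no Nt5e probe, which leaves the knockout unchecked here, and a CD73ko sham group was not analysed here, so genotype and surgery both differ between CD73ko tMCAO and flox sham mice.

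Chemokines are small secreted proteins that bind G protein-coupled receptors on leukocytes and guide their migration along a gradient. CC and CXC chemokines differ in the spacing of their first cysteines. In the brain, microglia, astrocytes and vascular cells can release them after injury, and blood monocytes that carry the matching receptors can enter the tissue. Ccl2 is the main ligand of the monocyte receptor Ccr2, and Ccl12 is a mouse CC ligand that also acts on Ccr2. Ccl3, also called macrophage inflammatory protein 1 alpha, attracts monocytes and T cells, and Ccl6 is a rodent CC ligand made by myeloid cells. Cxcl15, known as lungkine, was described in mouse lung epithelium.

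The total count over the 770 genes of the panel lay between 724655 and 848853 in 11 libraries and was 293589 in flox sham replicate 4. In that library the 5 genes had between 2 and 10 raw counts, so its values are the least precise. Values below are normalised counts, that is raw counts scaled to the mean library by TMM. A gene was taken as above background in a library when it exceeded the mean plus 2 SD of the 8 negative control probes. By the criterion of at least 3 of 4 mice in some group, 712 of 757 genes were above background, and 4 of the 5 genes were, the exception being Cxcl15. All measured markers of neurons (9 of 9), astrocytes (5 of 5) and oligodendrocytes (5 of 5) were above background in each group.

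Of the 5 genes, 4 were higher in CD73ko tMCAO than in flox sham brains and 3 were higher in flox tMCAO than in flox sham brains, at an adjusted p under 0.05 in edgeR's quasi-likelihood test over all 757 genes. Ccl12, Ccl2 and Ccl3 were called in both comparisons, and Ccl6 was called in CD73ko tMCAO. None of the 5 was lower. On the whole panel, 16.1% of genes were called higher in CD73ko tMCAO and 14.1% in flox tMCAO. Higher genes were 70.9% of the 172 genes called in CD73ko tMCAO and 64.1% of the 167 called in flox tMCAO. With housekeeping scaling that share was 46.3% in CD73ko tMCAO and 47.3% in flox tMCAO, while the calls of the 5 genes did not move. The median log2 fold change in CD73ko tMCAO was 1.65 for the 5 genes and 0.00129 for all genes, and in flox tMCAO it was 1.29 for the 5 genes and -0.00927 for all genes. The 2 comparisons use the same sham mice, so their values are given side by side. In RNA from whole tissue, fewer or more cells of a type and less or more RNA per cell cannot be told apart.

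**Figure D1:**
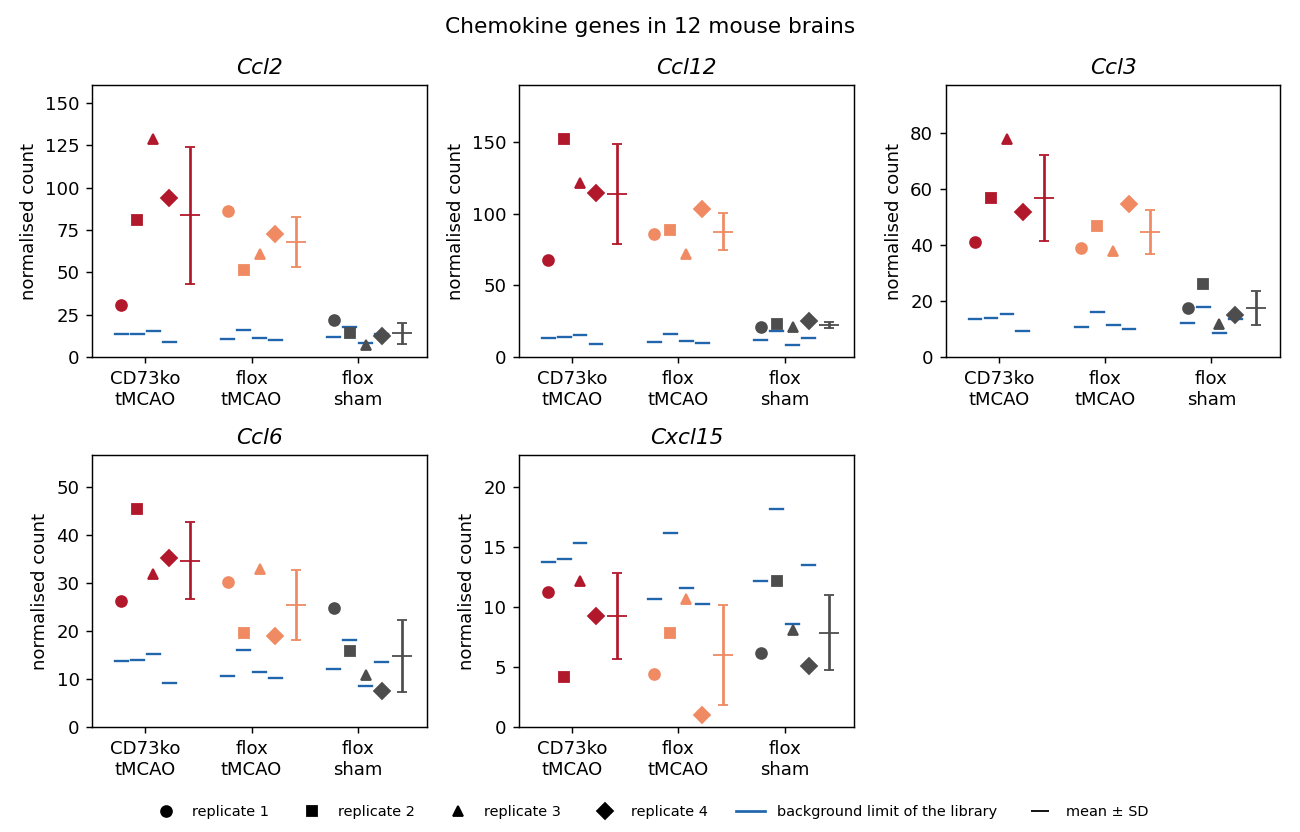
Normalised counts of the 5 genes (vertical axes) in each mouse of the CD73ko tMCAO, flox tMCAO and flox sham groups, with the mean ± SD of 4 mice beside each group and the background limit of each library as a blue bar. All tMCAO mice lie above all shams for Ccl2, Ccl12 and Ccl3, the flox tMCAO mice overlap the shams for Ccl6, and Cxcl15 lies near or under the limit.

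Ccl12 had 67.5, 152, 121 and 114 normalised counts in CD73ko tMCAO replicates 1 to 4, 86.0, 88.7, 71.8 and 103 in flox tMCAO replicates 1 to 4, and 21.3, 23.3, 20.8 and 25.4 in flox sham replicates 1 to 4. Every tMCAO mouse lay above every sham, and the shams lay close together. The means were 114 ± 34.8 in CD73ko tMCAO, 87.4 ± 12.8 in flox tMCAO and 22.7 ± 2.1 in flox sham mice (SD, n = 4 each). Against the shams, Ccl12 was higher by 2.34 ± 0.24 on the log2 scale (SE; edgeR adjusted p = 3.44e-06) in CD73ko tMCAO and by 1.97 ± 0.24 (edgeR adjusted p = 3.56e-05) in flox tMCAO mice. This is 5.07-fold higher in CD73ko tMCAO and 3.91-fold higher in flox tMCAO mice, with probe background left in the counts. Subtracting the negative control mean before the fit gave log2 fold changes of 2.75 in CD73ko tMCAO and 2.35 in flox tMCAO mice.

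Ccl2 had 30.9, 81.1, 128 and 93.8 normalised counts in CD73ko tMCAO replicates 1 to 4, 86.0, 51.7, 61.1 and 72.5 in flox tMCAO replicates 1 to 4, and 22.2, 14.0, 7.22 and 12.7 in flox sham replicates 1 to 4. The groups of each comparison with the shams did not overlap, but CD73ko tMCAO replicate 1 came close to the highest sham. Only 1 of 4 shams was above background, so the fold is a lower bound, computed with each sham raised to its background limit: Ccl2 was at least 4.78-fold higher in CD73ko tMCAO (edgeR adjusted p = 0.000323) and at least 4.29-fold higher in flox tMCAO mice (edgeR adjusted p = 0.00143). The fitted log2 fold change was 2.54 ± 0.41 (SE) in CD73ko tMCAO and 2.24 ± 0.42 in flox tMCAO mice. With the negative control mean subtracted before the fit, it was 3.34 in CD73ko tMCAO and 3.02 in flox tMCAO mice.

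Ccl3 had 41.2, 56.9, 77.8 and 52.0 normalised counts in CD73ko tMCAO replicates 1 to 4, 39.0, 46.8, 37.8 and 54.7 in flox tMCAO replicates 1 to 4, and 17.7, 26.1, 11.7 and 15.2 in flox sham replicates 1 to 4. No tMCAO mouse fell within the range of the shams. The log2 fold change against sham was 1.65 ± 0.26 in CD73ko tMCAO (SE; edgeR adjusted p = 0.000223) and 1.29 ± 0.27 in flox tMCAO mice (edgeR adjusted p = 0.00304). That is 3.14-fold in CD73ko tMCAO and 2.45-fold in flox tMCAO, with probe background left in the counts. Subtracting the negative control mean before the fit gave log2 fold changes of 2.11 in CD73ko tMCAO and 1.72 in flox tMCAO mice.

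Ccl6 had 26.2, 45.3, 31.9 and 35.3 normalised counts in CD73ko tMCAO replicates 1 to 4, 30.2, 19.5, 33.0 and 18.9 in flox tMCAO replicates 1 to 4, and 24.8, 15.9, 10.8 and 7.61 in flox sham replicates 1 to 4. Flox sham replicate 1 lay above 2 of the flox tMCAO mice, while all CD73ko tMCAO mice lay above all shams. Ccl6 was at least 2.05-fold higher in CD73ko tMCAO than in sham mice (fitted log2 fold change 1.11 ± 0.30, SE; edgeR adjusted p = 0.0163), with 2 of 4 shams above background. In flox tMCAO mice the log2 fold change of Ccl6 was 0.67 ± 0.31 and the edgeR adjusted p 0.145. Leaving out single mice changed these calls. The CD73ko call was lost without flox sham replicate 3 (log2 fold change 0.91, edgeR adjusted p = 0.0614) or CD73ko tMCAO replicate 2 (log2 fold change 0.96, edgeR adjusted p = 0.0541), with the fold still positive, and a flox tMCAO call was gained without flox sham replicate 1 (log2 fold change 1.05, edgeR adjusted p = 0.0421).

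Cxcl15 was above background in 1 of the 12 mice. It ranged from 4.21 to 12.2 normalised counts in CD73ko tMCAO, from 1.05 to 10.7 in flox tMCAO and from 5.07 to 12.1 in flox sham mice. A difference in Cxcl15 was not detectable at this depth.

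**Figure D2:**
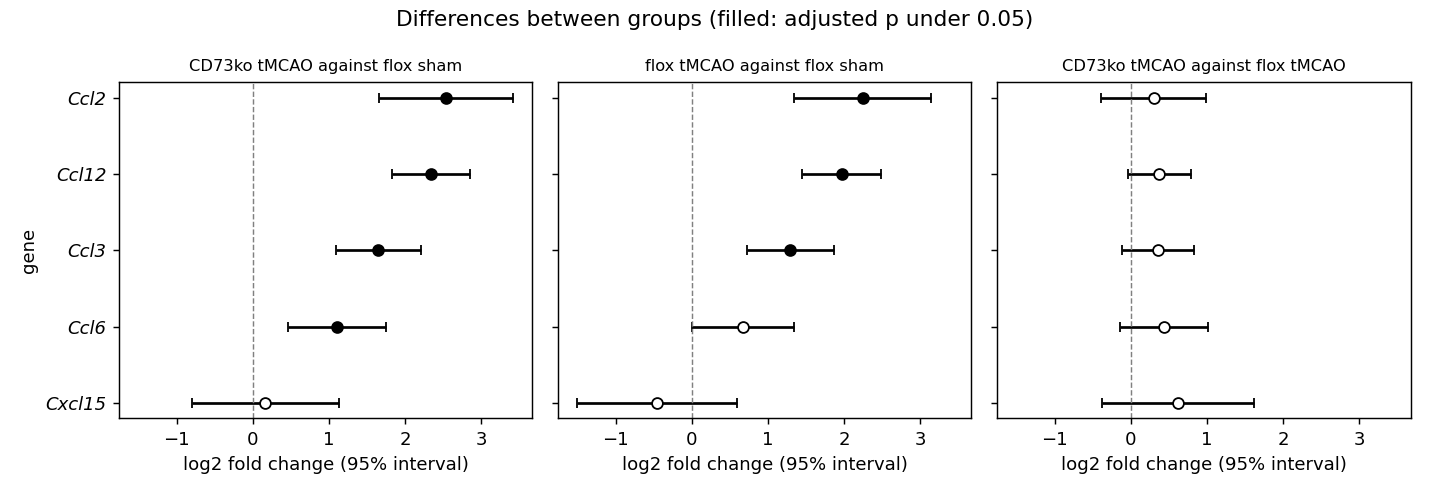
Log2 fold change (horizontal axis) with its 95% interval for each gene in the 3 comparisons; filled points have an adjusted p under 0.05. Of the points, 4 are filled for CD73ko tMCAO against flox sham, 3 for flox tMCAO against flox sham, and none for CD73ko tMCAO against flox tMCAO.

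The called genes stood among the upper ranks of the panel by log2 fold change. Of 757 genes, Ccl2 ranked 13 in CD73ko tMCAO and 12 in flox tMCAO against sham, and Ccl12 ranked 15 in CD73ko tMCAO and 16 in flox tMCAO. Ccl3 ranked 34 in both, and Ccl6 ranked 64 in CD73ko tMCAO and 76 in flox tMCAO, where it was not called. Of the 757 genes, 16.9% had all CD73ko tMCAO mice above all shams and 14.5% had all flox tMCAO mice above all shams. Among the 5 genes this held for 4 in CD73ko tMCAO and 3 in flox tMCAO.

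**Figure D3:**
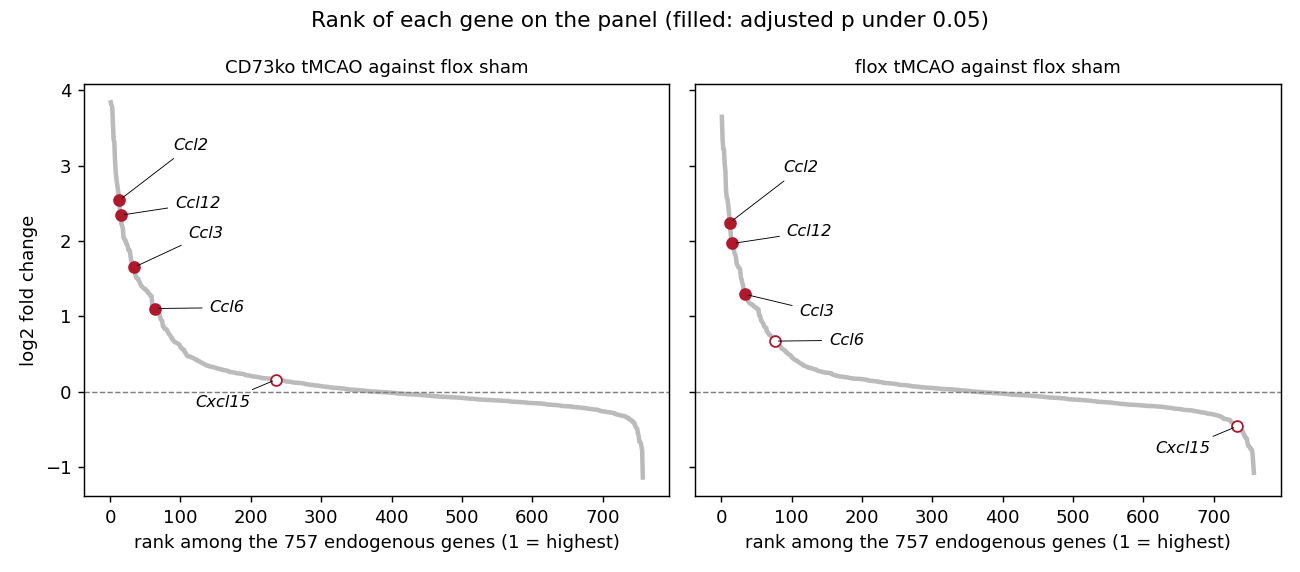
Log2 fold change against flox sham (vertical axis) of the 757 endogenous genes in order of rank (horizontal axis, grey line), for CD73ko tMCAO on the left and flox tMCAO on the right, with the 5 genes marked and filled where the adjusted p was under 0.05. Ccl2 and Ccl12 lie near the top of the curve in both panels, at ranks 13 and 15 on the left and 12 and 16 on the right.

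Whether CD73 loss was accompanied by a different chemokine level after the same surgery was asked by comparing CD73ko tMCAO with flox tMCAO mice. None of the 5 genes passed the test by edgeR, DESeq2 or limma, and 0 had an unadjusted p under 0.05 in edgeR. On the panel, 0% of genes were called, and 47 of 757 had an unadjusted p under 0.05. All 5 estimates were positive, including that of Cxcl15, which did not pass the background criterion. Over the panel, 452 of 757 were positive. The median was 0.375 (log2) among the 5 and 0.0335 over all genes. The groups overlapped for each of the 5 genes, whereas 3.83% of the panel's genes did not overlap.

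The intervals reached further above 0 than below it. For Ccl12 the log2 difference, CD73ko minus flox, was 0.38 with a 95% interval of -0.04 to 0.79, and for Ccl2 it was 0.30, from -0.39 to 0.98. For Ccl3 it was 0.36, from -0.11 to 0.83, and for Ccl6 0.43, from -0.15 to 1.01. The edgeR adjusted p of the 5 genes lay between 0.786 and 0.835.

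Mice within a group differed, and the ligands did not always rank the mice alike. CD73ko tMCAO replicate 1 was the lowest of the 8 tMCAO mice for Ccl12 and Ccl2, and flox tMCAO replicate 3 was the lowest for Ccl3. That flox mouse had the third highest Ccl6 of the 8. The coefficient of variation of Ccl2 was 48.3% among CD73ko tMCAO and 21.9% among flox tMCAO mice, and that of Ccl12 was 30.6% among CD73ko tMCAO and 14.7% among flox tMCAO mice. For Ccl3 it was 26.9% among CD73ko tMCAO and 17.5% among flox tMCAO mice. The order was reversed for Ccl6 (23.1% in CD73ko tMCAO, 28.5% in flox tMCAO) and Cxcl15 (38.5% in CD73ko tMCAO, 69.5% in flox tMCAO). Without CD73ko tMCAO replicate 1, the log2 difference between the genotypes was 0.53 for Ccl12 (edgeR adjusted p = 0.135) and 0.55 for Ccl2 (edgeR adjusted p = 0.430). Without CD73ko tMCAO replicate 3, that of Ccl2 was 0.01 (edgeR adjusted p = 0.998).

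**Figure D4:**
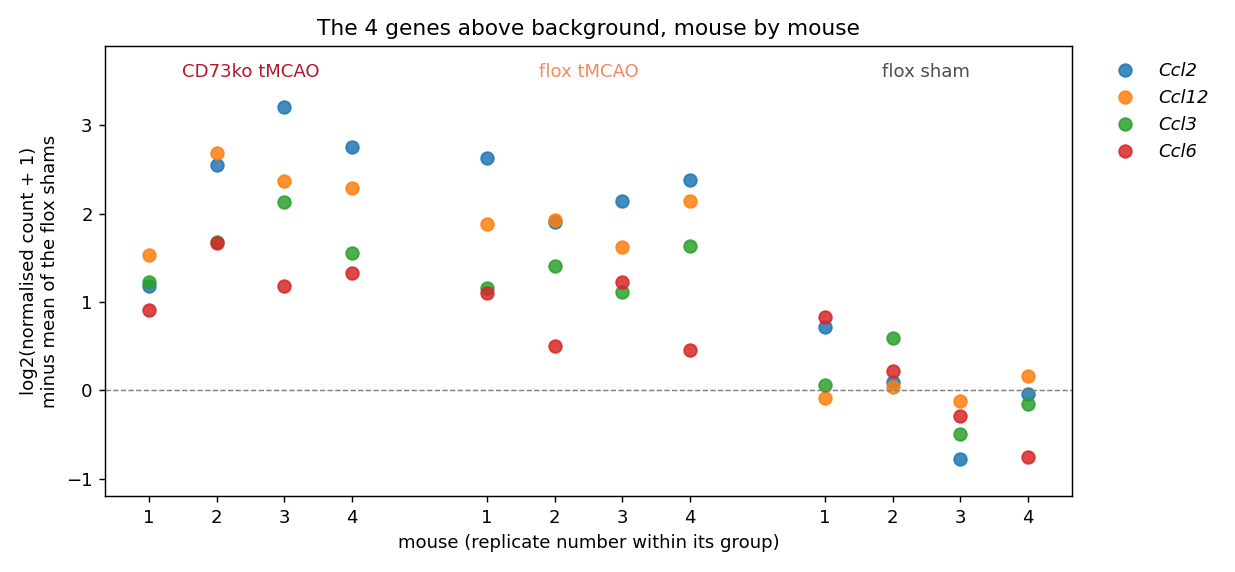
Log2(normalised count + 1) minus the mean of the flox shams (vertical axis) for the 4 genes above background in each mouse, numbered within its group (horizontal axis). CD73ko tMCAO replicate 1 has the lowest Ccl12 and Ccl2 of the 8 tMCAO mice, and flox tMCAO replicate 3 has the lowest Ccl3.

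Markers of microglia and of monocytes and macrophages were mostly higher in tMCAO than in sham brains, as were the chemokine genes. The summed level of 10 microglial markers lay between 4062 and 5593 normalised counts in CD73ko tMCAO, 3154 and 5417 in flox tMCAO, and 2127 and 2528 in flox sham mice, with 7 of 10 called higher in CD73ko tMCAO (6 under each of 3 other scalings) and 6 of 10 in flox tMCAO. The sum of 6 measured monocyte and macrophage markers lay between 372 and 1082 in CD73ko tMCAO, 522 and 680 in flox tMCAO, and 133 and 188 in flox sham mice. Of those 6, 5 were called higher in each comparison with sham, among them Lyz2, which encodes lysozyme of myeloid cells, and Msr1, a scavenger receptor, which was above background in 0 of 4 shams. CD73ko tMCAO replicate 1 had the lowest monocyte and macrophage sum of the 8 tMCAO mice, and flox tMCAO replicate 3 had the lowest microglial sum. Other mice did not follow this order. CD73ko tMCAO replicate 2, the highest for Ccl12 and Ccl6, had a monocyte and macrophage sum of 621, within the flox tMCAO range. CD73ko tMCAO replicate 4 had the highest microglial (5593) and monocyte and macrophage (1082) sums but was the highest for none of the chemokine genes. The part of these cells in the chemokine values was not tested.

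Markers of other cell types differed from sham in both directions. On the whole panel, 16.1% of genes were called higher and 6.61% lower in CD73ko tMCAO, and 14.1% higher and 7.93% lower in flox tMCAO. Of 12 measured T and NK cell markers, 4 were above background. Cd4 and Eomes were the 2 called lower in each comparison with sham. The sum of the 12 lay between 166 and 241 normalised counts in CD73ko tMCAO, 140 and 209 in flox tMCAO, and 213 and 265 in flox sham mice. Mean Cd4 was 25.9 in CD73ko tMCAO, 27.1 in flox tMCAO and 40.6 in flox sham mice. Mean Eomes was 38.0, 39.7 and 63.9 in the same order, so these 2 genes weigh heavily in the sum. Whether this RNA came from T or NK cells was not tested. The neutrophil list was measured by 1 of its 10 genes, Csf3r, which was not called, so neutrophils could not be followed. Of 7 endothelial markers, 0 were called higher in CD73ko tMCAO and 3 in flox tMCAO (2 with housekeeping scaling). Between the genotypes after tMCAO, 0 of these 7 were called. Of 5 astrocyte markers, 2 were called higher in CD73ko tMCAO and 1 in flox tMCAO, led by Gfap, the intermediate filament of reactive astrocytes. Of 9 neuronal markers, 4 were called lower in CD73ko tMCAO and 5 in flox tMCAO. The CD73ko count was 5 with DESeq2 size factors and 6 with housekeeping or total count scaling, while the flox count was 5 with each.

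The genes whose profile over the 12 mice was most like that of each called gene were found by the root mean square difference in log2(normalised count + 1) from the sham mean, among 707 other genes above background. Nearest to Ccl12 were Fcgr1, a high-affinity IgG receptor (0.255), Gfap (0.259) and Tyrobp, a signalling adaptor of myeloid receptors (0.274); the median over the candidates was 1.71. Nearest to Ccl2 were the lysosomal protein gene Cd68 (0.478), the complement receptor gene C3ar1 (0.506) and Gfap (0.514). Ccl3 lay nearest to Trem2, a microglial lipid receptor (0.278), Tgfb1 (0.292) and Ctsd (0.292), which encodes cathepsin D. Ccl6 lay nearest to Tlr7 (0.316), Cd33 (0.413) and Pros1 (0.425).

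These likeness values describe how far 2 profiles lie apart and include the differences between the groups. Among the 4 genes themselves, Ccl12 and Ccl2 were closest, at 0.506, and Ccl12 and Ccl3 lay 0.546 apart. The widest distance was between Ccl2 and Ccl6, at 1.18.

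Other ligands and receptors of cell migration moved in both directions. Of 8 measured genes of this list, 4 were called higher and 0 lower in CD73ko tMCAO, and 2 were called higher and 1 lower in flox tMCAO, against sham. The panel's shares were 16.1% higher and 6.61% lower in CD73ko tMCAO, and 14.1% higher and 7.93% lower in flox tMCAO. The list's median log2 fold change was 0.454 in CD73ko tMCAO and 0.0127 in flox tMCAO. C3ar1 was higher by 2.62 ± 0.21 (log2, SE; edgeR adjusted p = 7.24e-07) in CD73ko tMCAO and by 2.39 ± 0.21 (edgeR adjusted p = 2.53e-06) in flox tMCAO mice. Cx3cr1, the microglial fractalkine receptor, was higher by 1.05 ± 0.19 (log2, SE) in CD73ko tMCAO and 0.72 ± 0.19 in flox tMCAO. Its ligand Cx3cl1, made by neurons, had a log2 fold change of -0.27 ± 0.13 (SE; edgeR adjusted p = 0.154) in CD73ko tMCAO and of -0.62 ± 0.13 (edgeR adjusted p = 0.00379) in flox tMCAO, where it was the 1 gene called lower; the log2 difference, CD73ko minus flox after tMCAO, was 0.35 (edgeR adjusted p = 0.747). Csf1 and P2ry12, a growth factor of myeloid cells and a nucleotide receptor of microglia, were called higher in CD73ko tMCAO by 0.43 ± 0.13 and 0.61 ± 0.21 (log2, SE); the call of P2ry12 was lost under each of 3 other scalings (edgeR adjusted p = 0.0507 to 0.0647).

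Among 13 measured genes of NF-kB, Toll and interferon signalling, 8 were called higher in CD73ko tMCAO (7 under each of 3 other scalings) and 4 in flox tMCAO, and 0 were lower. The panel's shares called higher were 16.1% in CD73ko tMCAO and 14.1% in flox tMCAO. The median log2 fold change of the 13 was 0.458 in CD73ko tMCAO and 0.181 in flox tMCAO. Stat3, a transcription factor of cytokine receptors, was higher by 0.75 ± 0.11 (log2, SE) in CD73ko tMCAO and 0.66 ± 0.11 in flox tMCAO. Spi1, which encodes the myeloid factor PU.1, was higher by 1.46 ± 0.22 in CD73ko tMCAO and 1.20 ± 0.23 in flox tMCAO. Irf8, a factor of the myeloid lineage, was higher by 1.51 ± 0.26 in CD73ko tMCAO and 1.12 ± 0.27 in flox tMCAO. Its sham mean was 13.1 normalised counts, with 3 of 4 shams above background, and probe background was left in the counts. Tlr7, a receptor for single-stranded RNA, was at least 2.04-fold higher in CD73ko tMCAO, with 2 of 4 shams above background; the fourth gene in flox tMCAO was Tlr2, higher by 0.86 ± 0.25.

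Among 9 measured inflammatory cytokines and receptors, 3 were called higher in CD73ko tMCAO and 1 in flox tMCAO. The panel's shares called higher were 16.1% in CD73ko tMCAO and 14.1% in flox tMCAO. The median log2 fold change of these 9 was 0.174 in CD73ko tMCAO and 0.0357 in flox tMCAO. Tgfb1 was higher by 1.51 ± 0.17 (log2, SE) in CD73ko tMCAO and 1.15 ± 0.18 in flox tMCAO, and Ifngr2, a chain of the interferon gamma receptor, by 0.31 ± 0.10 in CD73ko tMCAO. The call of Ifngr2 was lost with housekeeping scaling (edgeR adjusted p = 0.157) and total count scaling (edgeR adjusted p = 0.0662). Il1a was called in CD73ko tMCAO but was above background in 2 of 4 CD73ko tMCAO mice and 0 of 4 shams, so no fold is given. Of 9 measured genes of chemokine receptor signalling and leukocyte adhesion, 1 was called higher in CD73ko tMCAO and 2 in flox tMCAO. Each of 3 other scalings added 1 lower call in CD73ko tMCAO. The median log2 fold change of this list was 0.117 in CD73ko tMCAO and 0.131 in flox tMCAO. Beside the panel's shares, its counts are not read as a change of the pathway. Itgam, the CD11b integrin chain, was higher by 1.67 ± 0.22 in CD73ko tMCAO and 1.10 ± 0.23 in flox tMCAO, and the endothelial adhesion gene Pecam1 by 0.63 ± 0.20 in flox tMCAO. Between the genotypes after tMCAO, 0 genes of these 4 lists were called.

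The 4 CC ligand genes lie on chromosome 11 of the mouse genome (GRCm38.p6), at 82035577 to 82037452 for Ccl2, 82101845 to 82103399 for Ccl12, 83587886 to 83593087 for Ccl6 and 83647843 to 83649378 for Ccl3. Ccl2 and Ccl12 are 64.4 kb apart, Ccl6 and Ccl3 54.8 kb, and 1.48 Mb separates the pairs. Cxcl15 lies on chromosome 5 at 90794534 to 90803067. The upstream bases of Ccl12 and Ccl3 are shown because both genes were called in both comparisons with sham and have a window in the RefSeq promoter table. They are the 250 bases before the gene start, 5′ to 3′ on the gene's strand, at chr11:82101595-82101844 (plus strand) for Ccl12 and chr11:83649379-83649628 (minus strand) for Ccl3. Capitals mark motif matches.
Ccl12: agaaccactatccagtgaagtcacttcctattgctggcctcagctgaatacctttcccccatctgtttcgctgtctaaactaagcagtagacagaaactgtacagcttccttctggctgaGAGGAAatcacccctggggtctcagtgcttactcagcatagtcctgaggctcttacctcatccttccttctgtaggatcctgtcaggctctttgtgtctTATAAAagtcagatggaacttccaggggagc
Ccl3: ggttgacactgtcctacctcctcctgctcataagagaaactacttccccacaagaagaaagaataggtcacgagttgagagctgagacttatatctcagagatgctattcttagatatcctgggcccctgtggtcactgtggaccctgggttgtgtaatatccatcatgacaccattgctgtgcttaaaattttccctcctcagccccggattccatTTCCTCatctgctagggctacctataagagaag

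A set of 5 short motifs was searched on both strands of the 250 bases, and the share of 32851 windows of the same length that hold each was counted. The NF-kB core was searched as GGNNTTTCC and was held by 4.93% of windows. The C/EBP motif was searched as TTGCNNAA and was held by 9.56%. The AP-1 motif was searched as TGANTCA and was held by 6.75%. The PU.1 core was searched as GAGGAA and was held by 23.3%. The TATA box was searched as TATAAA and was held by 12.4%. The Ccl12 window held GAGGAA from 130 to 125 bases upstream and TATAAA from 31 to 26 bases upstream, and the matches did not overlap. The Ccl3 window held GAGGAA on the opposite strand from 33 to 28 bases upstream. Of the other 2 windows in the table, that of Cxcl15 held TATAAA from 27 to 22 bases upstream and that of Ccl6 held none of the 5. A match is a run of letters and does not show that a factor binds there.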

How the data were processed

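The deposited values are raw counts of 770 genes and 14 control probes in 12 mice, which the authors obtained with the nCounter Glial Profiling Panel from TRIzol-extracted whole brain RNA, per the labels' protocols. Counting software and any background step are not given in the sources used here. The authors' 2 normalised tables were not used, because 11 sample names in each match no label. The 13 genes that those tables leave out were taken as housekeeping genes, and they and the control probes stayed out of the tests.

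The 757 endogenous genes were fitted in edgeR 4.0.16 under R 4.3.3, by the quasi-likelihood F test with TMM scaling and a coefficient for each group. All 12 mice entered the fit, and p-values were adjusted by Benjamini-Hochberg across the 757 genes, at 0.05. Standard errors were obtained by dividing the absolute log2 fold change by the root of F, and the 95% intervals rest on 14.4 degrees of freedom. If under 3 mice of the lower group of a called gene were above background, its fold came from mean log2(normalised count + 1). That group was raised to its background limits, so the fold is a lower bound for background only and does not cover the spread between mice. DESeq2 1.42.0 and limma 3.58.1 were alternatives, with other scalings, filters and each mouse left out. The fit was tested on simulated data.

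The 5 genes were named, with the 3 genes most like each called one and, from each pathway list, the called genes of the 4 smallest p and any that moved against the majority. The genes and lists were chosen with earlier results of these data known. Symbols of all 5 matched the RefSeq gene table of GRCm38.p6, and 4 of 5 had a promoter entry. A further gene that the naming rule takes entered the fit and is not reported here. Probe sequences were not used here, so binding to paralogues, such as Ccl2 and Ccl12, could not be assessed. Same-numbered mice did not deviate together (correlations of deviations from -0.248 to 0.169), and no 2 libraries of a group agreed within sampling noise.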

Additional observations from a re-analysis of the deposited data

Results flagged for a closer look

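The total count of flox sham replicate 4 was 293589, against 782911 to 828394 in the other 3 flox shams. Its gap to the nearest of them was 0.915 of the group's range, past the 95% limit of Dixon's test, which chance passes in about 1 in 20 groups. It was the only such gap among the 18 groups of values screened, the normalised counts of the 5 genes and the total count in each of the 3 groups of mice.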

How the results depend on the processing

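The number of the 5 genes called was 4 in CD73ko tMCAO and 3 in flox tMCAO against sham, and 0 between the genotypes. These counts were the same under DESeq2 size factors, housekeeping and total count scaling, subtraction of the negative control mean, both filters, DESeq2, limma and a fit of only the 2 groups compared. At an adjusted p of 0.01, 3 genes were called in CD73ko tMCAO, without Ccl6. With a replicate block, 4 were called in CD73ko tMCAO, 3 in flox tMCAO and 0 between the genotypes; the numbers do not pair the mice. With each mouse left out, the counts lay between 3 and 4 in CD73ko tMCAO and between 3 and 4 in flox tMCAO, against sham, and were 0 between the genotypes. Over 19 alternatives in each comparison with sham, Ccl12, Ccl2 and Ccl3 kept their direction and their call, and no estimate of the 5 genes changed sign. The same 4 genes were above background at 3 SD. Over the whole panel, the share of calls that were higher was in CD73ko tMCAO 70.9% by TMM, 46.3% by housekeeping scaling, 51.9% by total counts and 60.6% by DESeq2 size factors, and in flox tMCAO 64.1%, 47.3%, 51.3% and 61.7% by the same scalings. Raw counts of 3 to 28 for Ccl6 and 5 to 25 for Ccl2 in the shams limit the precision of their folds.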
